A study of Mus musculus with 8 samples.

Results

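Voltage-gated sodium and calcium channels turn a change in membrane voltage into a flow of ions, and the genes described here encode their pore-forming and accessory subunits. The members were all rows of the count table whose symbol begins with Scn, a number, and a or b, or with Cacna1, Cacna2d, Cacnb, or Cacng, and which had any count. The rule found 34 of the 16964 genes with a count, and 22 of these 34 were among the 12999 genes that averaged at least 1 CPM, the count of a gene after bringing libraries to one size. Within the rule no gene was picked by its change between libraries, but the members were chosen with earlier results of these data known.

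RNA was sequenced from hearts of male WT mice and male mice with whole-body knockout of TIGAR (TKO), with a single library for each region of each genotype and thus 8 libraries. Mice underwent myocardial infarction by ligation of the left anterior descending artery at 16 weeks of age, and the infarct, border, and remote zones were collected 4 weeks later. Left ventricular tissue labelled without a zone was taken as the reference here, and whether those hearts were sham operated was not given in the sources used. RNA of 3 mice was pooled for each infarct zone library, the number of mice behind the other libraries was not given, and the whole-body knockout removes TIGAR from all cell types and not from cardiomyocytes alone.

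In a ventricular cardiomyocyte the sodium channel opens first and carries the upstroke of the action potential, and the L-type calcium channel then admits the calcium that triggers contraction. Each sodium channel has a large pore subunit and small beta subunits that tune its gating and its place in the membrane. Each high-voltage calcium channel has a pore subunit, an intracellular beta subunit, and an extracellular alpha2delta subunit, whereas T-type pores open at more negative voltages and are best known from pacemaker tissue and the developing or stressed ventricle. After an infarct, muscle gives way to a scar of fibroblasts and inflammatory cells, so that a tissue library carries RNA from changing numbers of cells.

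Total counts were 27429240 to 33799249 per library. *Tigar*, the targeted gene, had 1066 to 2215 counts in the 4 WT libraries and 51 to 87 in the 4 TKO libraries. All 10 ventricular cardiomyocyte markers had counts in every library, and their summed level was 43100 to 59400 TMM-scaled CPM in the 6 libraries outside the infarct, 13000 in the WT infarct zone, and 26900 in the TKO infarct zone. Libraries stood apart in other lists too. The 6 skeletal muscle genes summed to 5249 counts (WT infarct) and 691 counts (WT border), against 30 to 82 elsewhere. The atrial gene *Myl7* had 5227 counts in the WT and 2031 in the TKO remote zone, against 44 to 682 elsewhere, and the 4 adipocyte genes summed to 1936 counts in the WT left ventricle against 29 in the TKO left ventricle.

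Levels were compared between genes as TMM-scaled CPM per kb of the longest coding transcript, where TMM is edgeR's scaling of library sizes. Of the members described here, *Cacna2d1* had a mean level of 16.6 over the 8 libraries, *Scn4b* 8.2, *Cacnb2* 7.81, and *Scn7a* 5.34. *Scn2a*, a brain sodium channel pore, had the lowest mean level of the 22 members tested for differences, 0.108. The order was not the same in each library. *Scn7a* lay above *Cacna2d1* in the WT infarct zone alone, with levels of 11.2 and 8.75, and the levels of *Scn4b* and *Cacnb2* overlapped, from 1.25 to 17.9 and from 3.57 to 10.6.

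**Figure D1:**
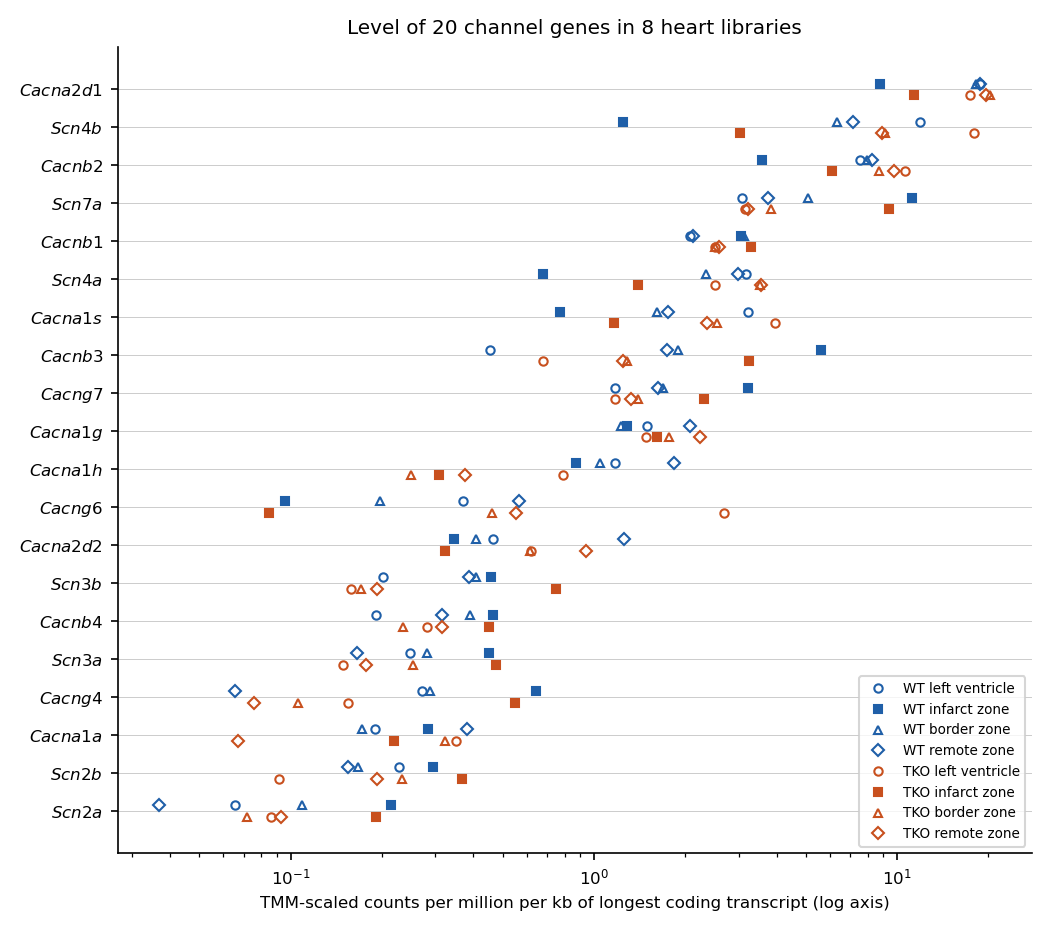
Level of 20 members with a mean of at least 1 CPM, 1 row per gene in order of mean level. The x axis is TMM-scaled CPM per kb of the longest coding transcript on a log scale, each point is 1 library, blue is WT, orange is TKO, and filled squares are the infarct zones. The filled squares lie at the low end for *Scn4b*, *Scn4a*, and *Cacna1s* and at the high end for *Scn7a*, *Cacnb3*, and *Cacng7*.

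*Cacna1c*, known as the main pore of the cardiac L-type channel, was nearly absent from the table. In WT it had 7, 13, 25, and 35 counts in the left ventricle, infarct, border, and remote zones, and 0, 41, 43, and 44 in the same TKO regions. Its mean level was 0.0625 CPM per kb, rank 27 of 34, below that of *Cacna1s*, the skeletal muscle L-type pore, with 2.17. The annotation lists 22 coding transcripts for *Cacna1c*, and 0.159% of its 31-base words also occur in other genes. The part that the choice of transcript models plays in these counts was not tested, and *Cacna1c* ratios are not read here as levels of the L-type pore. *Cacna1s* counts have a limit of their own, since 17.8% of its 31-base words are shared with *Gm37759*.

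The upstream sequences of 4 RefSeq starts are shown for members on either side of the infarct contrast described below, *Cacna2d1* (lower there) and *Cacnb3* and *Cacng7* (higher there). They are 150 bases upstream of the start in build GRCm38.p6, all on the plus strand and 5′ to 3′, and no annotated exon overlaps them. They are examples picked from the members called in that contrast, and *Scn2a*, whose windows also lie outside exons, is not shown. The stretch of *Cacna2d1* is chr5:15934541-15934690 and ends at the base before the gene, those of *Cacnb3* (starts a and b) are chr15:98632178-98632327 and chr15:98634617-98634766 within introns of the gene, and that of *Cacng7* is chr7:3332675-3332824, ahead of the gene. Capitals mark GC boxes (GGGCGG on either strand) and, in *Cacng7*, also the MCAT element (CATTCC on either strand), which muscle genes often carry. Start a of *Cacnb3* holds neither.
Cacna2d1: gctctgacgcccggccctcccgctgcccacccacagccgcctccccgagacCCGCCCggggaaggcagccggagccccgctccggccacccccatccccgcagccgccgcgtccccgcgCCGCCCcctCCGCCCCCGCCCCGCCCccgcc
Cacnb3 start a: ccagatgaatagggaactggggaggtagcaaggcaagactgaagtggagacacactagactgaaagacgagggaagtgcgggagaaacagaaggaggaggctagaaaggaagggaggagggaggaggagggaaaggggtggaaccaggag
Cacnb3 start b: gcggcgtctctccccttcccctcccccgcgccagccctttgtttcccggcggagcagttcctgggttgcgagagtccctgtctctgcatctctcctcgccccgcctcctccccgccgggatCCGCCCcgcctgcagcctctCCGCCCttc
Cacng7: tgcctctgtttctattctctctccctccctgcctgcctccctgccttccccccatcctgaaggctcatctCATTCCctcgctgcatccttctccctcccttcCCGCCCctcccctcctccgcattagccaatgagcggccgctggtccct
The 25 members with an entry had 35 windows of 250 bases before a start. The GC box occurred in 40% of these windows (14 members) and in 32.7% of all 32851 windows, with both strands searched and each motif looked for on its own. MCAT occurred in 20% of the members' windows (7 members) and in 12.6% of all windows, and the E box (CANNTG, not capitalised) in 62.9% (19 members) and 66.2%. The letters AGATAA, to which GATA factors bind, were found in 2.86% of the members' windows (*Scn7a*) and in 9.99% of all, and the TATA box (TATAAA) in 5.71% (*Cacna1d* and *Scn2a*) and 12.4%. The MEF2 site and the CArG box were found in 0 members and in 0.508% and 1.47% of windows. A match is a description of letters. No entry was found for *Scn3a*, *Scn3b*, *Cacna1a*, *Cacna1g*, *Cacna1h*, *Cacng1*, and *Cacng4*.

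*Scn7a* (ENSMUSG00000034810) encodes an atypical sodium channel known as a sodium sensor, and it was the member with the smallest adjusted p in the infarct test given below. Counts were 617, 3482, 1146, and 839 in the WT left ventricle, infarct, border, and remote zones, and 596, 2463, 835, and 713 in the same TKO regions. The infarct zone was above every other region in both genotypes. Its infarct zone over left ventricle ratio was 3.66 in WT (95% counting interval, 3.36 to 3.99) and 2.99 in TKO (2.74 to 3.28). These intervals, and all those given for ratios of 2 libraries, cover counting error only, since no group has a replicate. Relative to the left ventricle the WT border zone was 1.65-fold higher (1.497 to 1.83) and the TKO border zone 1.22-fold higher (1.10 to 1.36), and the TKO over WT ratio was below 1 in all 3 zones, with values of 0.757 (border) to 0.859 (remote).

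*Scn4a*, the pore of skeletal muscle, followed the opposite course. Counts in WT were 574 in the left ventricle, 189 in the infarct, 477 in the border, and 600 in the remote zone, and in TKO 427, 330, 688, and 707. The infarct zones were lowest in both genotypes, and the WT infarct zone, lowest of all, had the most counts of skeletal muscle genes. The infarct over left ventricle ratio was 0.213 in WT (0.180 to 0.252) and 0.560 in TKO (0.484 to 0.648). The infarct zone ratio of TKO over WT was 2.07 (1.72 to 2.48).

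The pores known from neurons were scarce. *Scn3a* had 65, 182, 83, and 48 counts in the left ventricle, infarct, border, and remote zones of WT and 37, 162, 72, and 51 in TKO. *Scn2a* had 16, 81, 30, and 10 counts in WT and 20, 61, 19, and 25 in TKO. For both genes each infarct zone lay above every other library of either genotype. These genes share sequence, with 6.59% of *Scn3a* words found in *Scn2a*, so that reads may be split between them. *Scn8a* had 2 to 46 counts, *Scn1a* 0 to 29, and *Scn9a* 0 to 21, and each had its highest count of a genotype in the infarct zone.

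*Scn10a*, a pore known from sensory neurons, had 0 counts in the WT left ventricle and 63 in the TKO left ventricle. The ratio was 22.2 when the 0 is taken as the floor of 3 counts, and its 95% counting interval began at 17.55. In the infarct, border, and remote zones it had 11, 9, and 34 counts in WT and 20, 41, and 47 in TKO. The TKO count was the higher one in each region, but the intervals of the infarct zone ratio, 2.15 (0.983 to 4.97), and of the remote zone ratio, 1.40 (0.880 to 2.24), held 1.

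The sodium beta subunits went separate ways. *Scn4b* (ENSMUSG00000046480), on chromosome 9 from 45138395 to 45154152, had the lowest infarct over left ventricle ratio of the 22 tested members in WT. Its WT counts were 1626 (left ventricle), 264 (infarct), 969 (border), and 1086 (remote), and its TKO counts 2307, 540, 1344, and 1338. TKO exceeded WT in each region, and the left ventricle exceeded every zone in each genotype. The infarct over left ventricle ratio was 0.105 in WT (0.0920 to 0.120) and 0.170 in TKO (0.154 to 0.186). In the border zone it was 0.530 in WT and 0.509 in TKO, and in the remote zone 0.602 and 0.499, so that *Scn4b* was also lower away from the infarct. The TKO over WT ratio was 1.501 in the left ventricle (1.41 to 1.60), 2.42 in the infarct (2.09 to 2.82), 1.44 in the border (1.33 to 1.57), and 1.25 in the remote zone (1.15 to 1.35).

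*Scn3b* was rare, with 23, 80, 52, and 49 counts in WT and 17, 111, 21, and 24 in TKO. The TKO infarct zone was 4.73-fold above its left ventricle (2.83 to 8.41) and the WT infarct zone 2.25-fold (1.40 to 3.76). TKO over WT, *Scn3b* was 1.64 in the infarct (1.22 to 2.22) and 0.420 in the border zone (0.240 to 0.709). *Scn2b* had 11 to 61 counts, with the highest count of each genotype in the infarct zone.

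**Figure D2:**
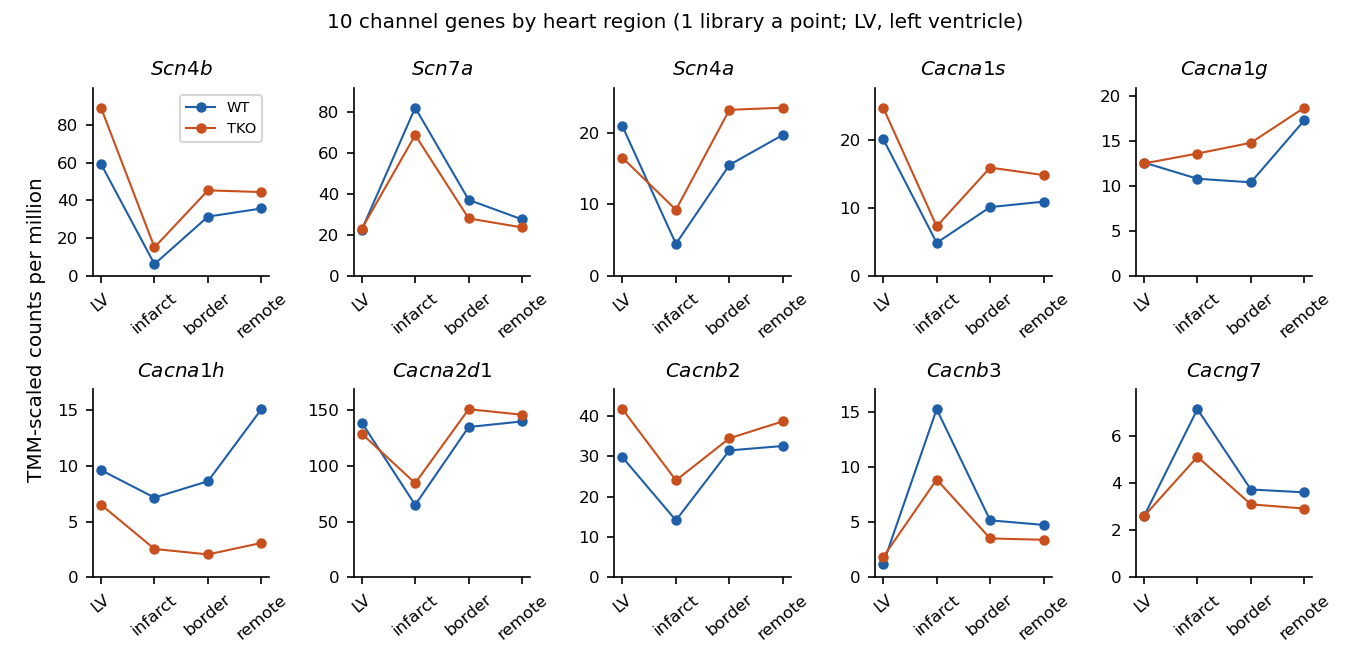
TMM-scaled CPM (y axis, from 0) of 10 members in the 4 regions (x axis; LV, left ventricle), 1 library a point, WT in blue and TKO in orange, with lines as a guide for the eye. *Scn4b* drops to 6.24 CPM in the WT and 15.1 in the TKO infarct zone, *Cacnb3* rises to 15.3 and 8.90, and *Cacna1h* stays lower in TKO in all 4 regions.

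Among the L-type pores, *Cacna1s* had 550, 205, 310, and 332 counts in the WT left ventricle, infarct, border, and remote zones and 639, 260, 472, and 445 in TKO. Every zone was below the left ventricle in both genotypes, and TKO was above WT in all 4 regions. The infarct over left ventricle ratio was 0.242 in WT (0.205 to 0.284) and 0.295 in TKO (0.254 to 0.341). The remote zone over left ventricle ratio was 0.544 and 0.599. The TKO over WT ratio ran from 1.23 in the left ventricle (1.10 to 1.38) to 1.58 in the border zone (1.37 to 1.83). *Cacna1d*, the pacemaker L-type pore, had at most 10 counts in a library, and *Cacna1f*, the retinal one, likewise.

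*Cacna1a*, the P/Q-type pore of nerve endings, had 41, 95, 42, and 92 counts in WT and 72, 62, 76, and 16 in TKO. TKO was higher in the left ventricle (1.86, 1.25 to 2.80) and border zone (1.88, 1.27 to 2.81) and lower in the remote zone (0.176, 0.0965 to 0.301). No direction was shared by the 4 regions. *Cacna1b*, the N-type pore, had 4 to 16 counts.

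The T-type pores *Cacna1g* and *Cacna1h* differed from each other. *Cacna1h* (ENSMUSG00000024112) lies on chromosome 17 from 25374285 to 25433783 on the minus strand. WT counts were 264 in left ventricle, 303 in infarct, 266 in border, and 459 in remote tissue, but 169, 91, 61, and 93 in TKO. No TKO library reached the lowest WT library on the scaled level, with 2.06 to 6.53 CPM against 7.16 to 15.1 CPM. Its TKO over WT ratio was 0.677 in the left ventricle (0.555 to 0.825), 0.355 in the infarct (0.278 to 0.451), 0.238 in the border (0.177 to 0.316), and 0.205 in the remote zone (0.162 to 0.256). Within TKO hearts each zone was below the left ventricle, by ratios of 0.390, 0.315, and 0.473. In WT the remote zone was above the left ventricle (1.57, 1.34 to 1.83), where the 4 atrial genes had a median ratio of 31.1. The TKO remote zone, with *Cacna1h* at 0.473, had an atrial median of 10.5. In the WT infarct and border zones *Cacna1h* was at 0.7435 and 0.896, with atrial medians of 5.07 and 4.63. Some marker lists of other cell types also had TKO over WT medians below 1 in the zones, and others did not. In the infarct, border, and remote zones the median TKO over WT ratios were 0.110, 0.480, and 0.347 for the 4 atrial genes. They were 0.826, 0.592, and 0.710 for the 6 fibroblast and 0.740, 0.687, and 0.689 for the 6 leukocyte genes. The 4 conduction genes had medians of 1.2, 1.26, and 1.19, and the 4 endothelial genes 1.26, 0.956, and 1.01. In the left ventricle the atrial, fibroblast, and leukocyte medians were 1.45, 1.02, and 0.872, and the conduction and endothelial medians 1.13 and 1.02. The part of these cell types in the *Cacna1h* difference was not tested.

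*Cacna1g* varied less. It had 344, 459, 319, and 527 counts in WT and 323, 486, 440, and 563 in TKO. The remote zone was the highest region in each genotype, 1.38-fold above the left ventricle in WT (1.20 to 1.59) and 1.499-fold in TKO (1.31 to 1.73), in the libraries where *Myl7* was high, and the part of atrial tissue was not tested. The TKO over WT ratio was 0.994 in the left ventricle (0.851 to 1.16), 1.25 in the infarct (1.10 to 1.43), 1.43 in the border (1.24 to 1.66), and 1.08 in the remote zone (0.957 to 1.22). *Cacna1i*, the third T-type pore, had 3 to 27 counts.

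*Cacna2d1*, the main cardiac alpha2delta subunit, was lowest in the infarct. It had 3808, 2752, 4166, and 4245 counts in WT and 3351, 3023, 4480, and 4404 in TKO. Outside the infarct the scaled level stayed within 129 to 151 CPM, and it was 65.1 CPM in the WT and 84.6 CPM in the TKO infarct zone. The infarct over left ventricle ratio was 0.468 in WT (0.446 to 0.492) and 0.654 in TKO (0.622 to 0.687). *Cacna2d2* had 74, 85, 73, and 223 counts in WT and 93, 67, 106, and 164 in TKO. Its highest library in each genotype was the remote zone, 2.71-fold above the left ventricle in WT (2.08 to 3.58) and 1.52-fold in TKO (1.17 to 1.98), again where *Myl7* was high, and the part of atrial tissue was not tested. *Cacna2d3* had 10 to 28 counts.

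The 4 calcium channel beta subunits split by subtype. *Cacnb2*, the main cardiac beta subunit, had 815, 596, 968, and 990 counts in WT and 1078, 857, 1021, and 1161 in TKO. Its level was lowest in the infarct zone of each genotype, 0.474 of the left ventricle in WT hearts (0.426 to 0.527) and 0.576 in TKO hearts (0.526 to 0.631), and TKO was above WT in each region, from 1.10 in the border to 1.70 in the infarct zone. *Cacnb3* (ENSMUSG00000003352), common in neurons and other nonmuscle cells, had 34, 646, 160, and 145 counts in WT and 48, 318, 105, and 103 in TKO. The WT infarct zone was 12.3-fold above its left ventricle (8.72 to 17.9), the highest ratio of any member tested, and the TKO infarct zone 4.80-fold (3.54 to 6.65). The border and remote zones were also higher, 4.19-fold and 3.84-fold in WT and 1.91-fold and 1.85-fold in TKO. The infarct zone ratio of TKO over WT was 0.583 (0.508 to 0.667). *Cacnb1*, the skeletal muscle form, had 193, 438, 326, and 219 counts in WT and 221, 400, 252, and 265 in TKO. *Cacnb4*, a brain form, had 43, 161, 99, and 79 counts in WT and 60, 132, 57, and 78 in TKO. Their infarct zone over left ventricle ratios were 1.47 and 2.43 in WT and 1.31 and 1.59 in TKO, and in WT the border zone ratio of *Cacnb1*, 1.502, was as high. The WT infarct and border libraries also held the most counts of skeletal muscle genes, and the part of skeletal muscle in *Cacnb1* was not tested. *Cacnb4* shares 15.4% of its words with *A430018G15Rik*, and its counts are uncertain to that extent.

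The gamma family includes partners of skeletal muscle calcium channels and of glutamate receptors of neurons, and these are not its only roles. *Cacng7* was the most abundant, with 71, 302, 115, and 110 counts in WT and 67, 183, 92, and 88 in TKO. The infarct was the highest region in both genotypes, 2.76-fold above the left ventricle in WT (2.12 to 3.62) and 1.98-fold in TKO (1.49 to 2.66). *Cacng4* had 26, 95, 31, and 7 counts in WT and 14, 69, 11, and 8 in TKO, with both infarct zones above all other libraries. *Cacng6* had 20, 8, 12, and 34 counts in WT and 137, 6, 27, and 33 in TKO, so that 1 library, the TKO left ventricle, set it apart with a TKO over WT ratio of 7.25 (4.52 to 12.2). *Cacng2* had 7 to 43 counts. *Cacng1*, a skeletal muscle subunit, had 15 counts in the infarct and 5 in the border zone of WT hearts and 0 to 2 elsewhere, and those are the libraries that hold skeletal muscle genes.

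Whether the infarct differed from the other 3 regions was tested over all 8 libraries, with genotype as a block, by the quasi-likelihood test of edgeR, with p-values adjusted by Benjamini-Hochberg over 12999 genes. The 2 genotypes then stand in for replicates, so the p-values bear on these libraries and not on mice. Of the 22 members tested, 7 were higher and 8 lower in the infarct zone, where 30.4% of all genes were called higher and 29.3% lower. The members' shares are near these backgrounds. Scaled by total counts alone the split was 12 higher and 5 lower among the members, and 8517 higher and 1110 lower among all genes.

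The 7 higher members were *Scn7a* (log2 fold change 1.499, SE 0.0918, adjusted p = 0.000132), *Cacnb3* (1.97, adjusted p = 0.00101), *Cacng4* (2.09, adjusted p = 0.00235), *Cacng7* (0.99, adjusted p = 0.00296), *Scn3a* (1.15, adjusted p = 0.00532), *Scn2a* (1.42, adjusted p = 0.0161), and *Scn3b* (1.38, adjusted p = 0.0242). The 8 lower members included *Scn4b* (-2.26, SE 0.202, adjusted p = 0.000433), *Cacna1s* (-1.37, adjusted p = 0.000321), *Cacna2d1* (-0.91, adjusted p = 0.00136), *Cacnb2* (-0.90, adjusted p = 0.00211), *Scn4a* (-1.59, adjusted p = 0.00281), *Cacna2d2* (-1.002, adjusted p = 0.0169), and *Cacng6* (-2.68, adjusted p = 0.0205). *Cacnb1* (0.36), *Cacnb4* (0.68), *Scn2b* (0.90), *Cacna1a* (0.02), *Cacna1g* (-0.22), and *Cacna1h* (-0.57) were among those not called.

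By role, the sodium pores *Scn7a*, *Scn3a*, and *Scn2a* were higher and *Scn4a* was lower. Of the sodium beta subunits *Scn3b* was higher and *Scn4b* lower, and of 4 calcium beta subunits 1 was higher (*Cacnb3*) and 1 lower (*Cacnb2*). Both alpha2delta subunits tested were lower, neither T-type pore was called, and of 3 gamma genes 2 were higher and 1 lower. Calls that lost their threshold when 1 library was left out were *Cacng6* (without the WT or the TKO infarct zone, adjusted p = 0.0572 and 0.176), *Scn2a* (likewise, 0.181 and 0.0634), *Cacna2d2* (without either infarct zone library, adjusted p = 0.0770 and 0.124), *Scn3a* (without the TKO infarct zone, 0.0684), *Cacng7* (without the WT infarct zone, 0.0592), and *Scn3b* (without the TKO infarct, border, or remote zone, adjusted p = 0.375, 0.0642, and 0.0731). Without the TKO infarct zone 4 members were higher in place of 7. Calls were also gained, among others by *Cacnb4* without the WT border zone or the TKO left ventricle (adjusted p = 0.0364 and 0.0240), *Cacnb1* without the WT border zone (0.0314), and *Cacna1h*, lower, without the WT left ventricle (0.0171). *Cacna2d2* was also not called without both remote zone libraries (adjusted p = 0.105), and *Cacnb2* was not called with total counts as the scaling (-0.27, adjusted p = 0.0753).

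Read as 2 libraries at a time, 7 of the 22 members were at least 2-fold lower and 7 at least 2-fold higher in the WT infarct zone than in the WT left ventricle, where 14.8% and 18.8% of all genes were. In TKO 4 members were at least 2-fold lower and 7 higher, where 7.62% and 16.2% of genes were. *Cacna2d1*, *Cacnb2*, and *Scn4a* passed 2-fold lower in WT and not in TKO, and whether these ratios differ between the genotypes was not tested. The departure test below sets the infarct zone against the other regions together, not against the left ventricle alone. The median member ratio was 1.38 in WT and 1.16 in TKO, against 1.01 for all genes in each genotype.

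Cardiomyocyte RNA moved with these results. The 10 cardiomyocyte markers were reduced in the infarct to a median of 0.237 of the left ventricle level in WT hearts and 0.46 in TKO hearts. Single markers ran from 0.120 to 0.335 in WT and from 0.370 to 0.635 in TKO. All 10 were called lower in the infarct test, and no marker was at 0. All 6 fibroblast markers were called higher, with a median ratio of 9.71 in WT and 8.69 in TKO, and so were all 5 tested of 6 leukocyte markers. Of 8 Schwann cell and neuron markers 6 were in the table, with summed counts of 844 in the WT and 530 in the TKO infarct zone against 300 to 350 elsewhere, and 2 of the 3 tested were called higher. The part of these cell types in the results for members was not tested. In tissue RNA, fewer cardiomyocytes and less RNA of a gene per cardiomyocyte cannot be told apart. Divided by the summed cardiomyocyte markers instead, the infarct over left ventricle ratio of *Cacna2d1* was 2.13 in WT and 1.42 in TKO, *Cacnb2* 2.16 and 1.25, and *Scn4a* 0.972 and 1.21. *Scn4b* stayed below 1, at 0.479 in WT (0.419 to 0.546) and 0.368 in TKO (0.334 to 0.404). *Cacna1s* was 1.10 in WT (0.933 to 1.29), with an interval that held 1, and 0.639 in TKO (0.551 to 0.740). Thus *Cacna2d1* and *Cacnb2* were less reduced than the marker sum in both genotypes, and *Scn4b* was more reduced.

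**Figure D3:**
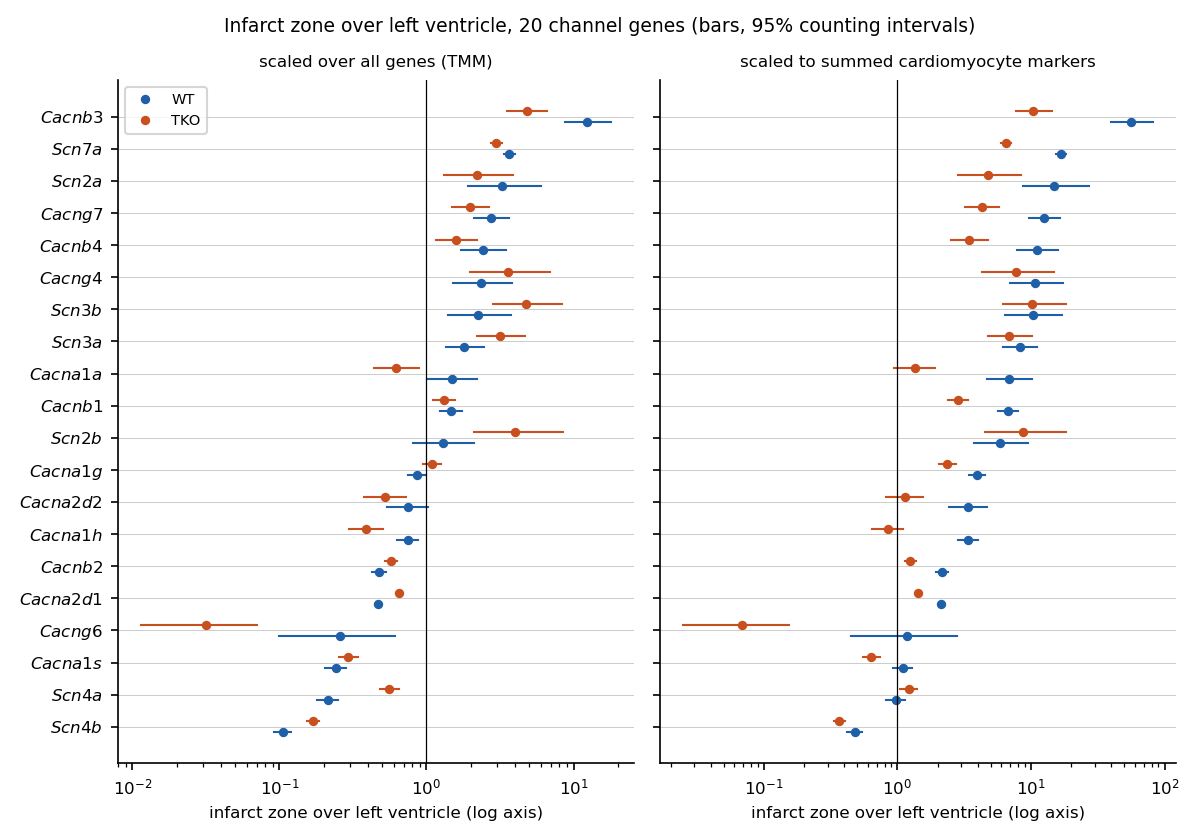
Infarct zone over left ventricle ratio (x axis, log scale) of 20 members tested, in order of the WT ratio, WT in blue and TKO in orange, with bars for 95% counting intervals. Left, libraries scaled over all genes. Right, each gene divided by the summed cardiomyocyte markers, where *Cacna2d1* moves from 0.468 to 2.13 in WT and *Scn4b* stays below 1 in both genotypes.

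Whether TKO differed from WT was tested with the 4 regions as blocks, which stand in for replicates. The zones of a genotype may come from the same hearts, which the sources used here do not settle, so the 4 regional differences may not be independent. No member was called by edgeR's quasi-likelihood test, where 0.138% of all genes were. An unadjusted p under 0.05 was given to 6 of the 22 members and to 2109 of the 12999 genes. *Cacna1h* had the largest of these 6 differences (log2 fold change -1.59, SE 0.293, adjusted p = 0.157), lower in TKO in 4 of 4 regions. *Cacna1s* (0.49, SE 0.0889, adjusted p = 0.155), *Scn4b* (0.66, SE 0.152, adjusted p = 0.191), and *Cacnb2* (0.40, SE 0.114, adjusted p = 0.213) were higher in TKO in 4 of 4 regions, and *Scn7a* (-0.21, adjusted p = 0.299) had 3 of 4 below 1. DESeq2's Wald test called 3 members, *Cacna1h* (adjusted p = 7.68e-05), *Scn4b* (0.00938), and *Cacna1s* (0.0193). That test also called more of the 12999 genes, 128 higher and 214 lower, where edgeR called 10 and 8. In the edgeR test *Cacna1h* passed the threshold once both left ventricle libraries were left out (log2 fold change -1.95, adjusted p = 0.0380). Leaving out only the WT or only the TKO left ventricle library gave the same log2 fold change. The remaining one then has no pair, so these are not separate checks. Leaving out any other library gave adjusted p-values of 0.374 to 0.586.

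Counted region by region, 2 members were at least 2-fold different in the left ventricle (*Cacng6* higher, *Scn2b* lower), where 5.51% of all genes were. In the infarct zone there were 3 (*Scn4a* and *Scn4b* higher, *Cacna1h* lower), against 3.87% of genes. In the border zone there were 4 (*Cacng6* higher, *Cacna1h*, *Cacng4*, and *Scn3b* lower), against 4.48%, and in the remote zone 3 (*Scn2a* higher, *Cacna1a* and *Cacna1h* lower), against 3.53%. *Cacna1h* was the sole member on this list in 3 regions. Over the members the TKO over WT ratios had a median of 1.09 in the left ventricle, 1.01 in the infarct, 0.998 in the border, and 1.06 in the remote zone.

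**Figure D4:**
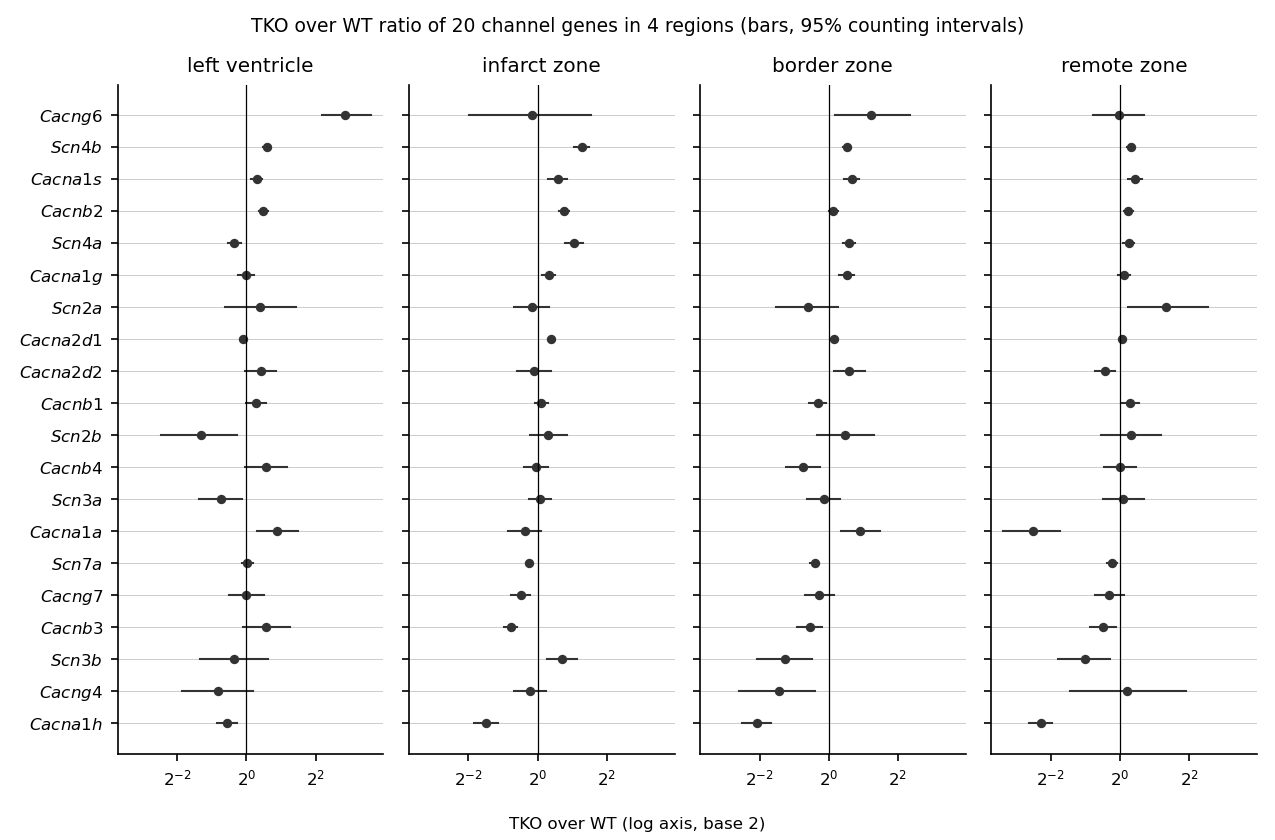
TKO over WT ratio (x axis, log scale of base 2) of 20 members tested in each of the 4 regions, in order of the fitted difference, with bars for 95% counting intervals and a line at 1. *Cacna1h* lies below 1 in all 4 panels, from 0.677 in the left ventricle to 0.205 in the remote zone, and *Scn4b*, *Cacna1s*, and *Cacnb2* lie above 1 in all 4.

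In the infarct zone the cardiomyocyte markers were higher in TKO than in WT, with a median ratio of 1.95 and single markers from 1.64 to 3.41. Relative to the summed markers the infarct zone ratio of TKO over WT was 1.17 for *Scn4b* (1.01 to 1.36), 1.001 for *Scn4a* (0.835 to 1.20), 0.825 for *Cacnb2* (0.742 to 0.917), and 0.172 for *Cacna1h* (0.135 to 0.218). The difference in *Cacna1h* was thus larger on that scale, and that in *Cacnb2* changed direction. So did others, among them *Cacna1s* (0.727, 0.603 to 0.878), *Cacna2d1* (0.630, 0.598 to 0.6635), and *Cacna1g* (0.607, 0.533 to 0.691). In the left ventricle, where the marker median was 1.02, *Scn4b* was 1.53 (1.43 to 1.63) and *Cacnb2* 1.43 (1.30 to 1.56).

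A separate term asked whether the genotype difference in the infarct zone departed from that of the other regions. No member was called by edgeR, where 0.00769% of genes were, and 3 had an unadjusted p under 0.05, among them *Scn4b* (0.80, SE 0.184, adjusted p = 0.411) and *Scn3b* (1.61, adjusted p = 0.607). Of the 12999 genes, edgeR gave 1018 an unadjusted p under 0.05. *Cacna2d1*, *Cacnb2*, and *Scn4a* had log2 fold changes of 0.34, 0.48, and 0.88 for this term. The 10 cardiomyocyte markers had a median of 0.822 for it, and edgeR gave all 10 an unadjusted p under 0.05 and called none. The part of cardiomyocyte RNA in the members' values was not tested. DESeq2 also called no member, where it called 288 genes higher and 0 lower. It gave 2 members and 774 genes an unadjusted p under 0.05.

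The border and remote zones together were compared with the left ventricle in the same fit. No member passed the threshold, where 0.115% of genes did. An unadjusted p under 0.05 was given to 5 of the 22 members and to 2292 of the 12999 genes. *Cacna1s* came closest (-0.81, SE 0.105, adjusted p = 0.0603), followed by *Scn4b* (-0.90, SE 0.177, adjusted p = 0.104) and *Cacnb3* (1.41, SE 0.307, adjusted p = 0.113). *Scn7a* (0.33, adjusted p = 0.205) and *Cacng6* (-1.52, adjusted p = 0.268) were the others. DESeq2 called *Cacna1s*, *Scn4b*, and *Cacnb3*, with adjusted p = 0.000104, 0.00131, and 0.00264. It also called more of the 12999 genes, 416 higher and 114 lower, where edgeR called 12 and 3. With edgeR, *Cacna1s* and *Cacnb3* both passed when the TKO left ventricle library was left out (-0.94 and 2.05, adjusted p = 0.0412 each).

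Channel partners were read from a list of 30 genes that bind, anchor, or modify these channels, 25 of which were tested. In the infarct test 12 were lower, 3 higher, and 10 not called, where 29.3% of all genes were lower, 30.4% higher, and all 10 cardiomyocyte markers lower. The part of the cardiomyocyte share of the RNA in these calls was not tested. Lower were *Kcnip2*, a potassium channel partner that also binds calcium channels (log2 fold change -1.72, adjusted p = 0.00269), and *Fgf13*, an intracellular factor that binds the tail of sodium channels (-1.44, adjusted p = 0.00132). Also among the lower were the membrane organisers *Cav3* (-1.32), *Jph2* (-1.26), *Ank2* (-0.70), and *Ank3* (-0.64), the sodium channel trafficking factors *Rangrf* (-1.23) and *Gpd1l* (-0.81), and *Ptpn3* (-1.03), *Fgf1* (-0.94), and *Camk2d* (-0.78). Higher were *Fgf14*, the relative of *Fgf13* known from neurons (2.53, adjusted p = 0.000145), *Gem*, a small GTPase that restrains calcium channel beta subunits (1.05, adjusted p = 0.00195), and *Fgf11* (0.67, adjusted p = 0.00887). *Fgf14* had 42, 742, 138, and 82 counts in the WT left ventricle, infarct, border, and remote zones and 33, 347, 78, and 65 in TKO, whereas *Fgf13* had 1258, 477, 1033, and 1362 in WT and 1285, 802, 1243, and 1520 in TKO. In both genotypes, then, *Fgf14* was highest and *Fgf13* lowest in the infarct zone. No partner was called in the genotype test, the departure test, or the comparison of border and remote zones with the left ventricle. There edgeR gave 7, 4, and 3 of the 25 partners tested an unadjusted p under 0.05. In the same order, 2109, 1018, and 2292 of the 12999 genes had such a p.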

How the data were processed

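The libraries were total RNA from mouse heart tissue, 1 per genotype and region, with pooling of mice stated for the infarct zones. Per the study's methods and processing notes, the authors trimmed reads with Trim Galore (0.6.5), quantified transcripts with kallisto (0.46) on mm10, and summarised them per gene with tximport. The deposited values are estimated counts per gene, written as whole numbers. All 8 columns were used. Rows with a blank symbol (153) could not be members.

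Libraries were scaled by edgeR's TMM (4.0.16, R 4.3.3) over 12999 genes averaging 1 CPM or more. Ratios of 2 libraries carry exact Clopper-Pearson 95% intervals, which cover counting error only, and a prior count of 2 was added for counts of 2-fold changes. A count of 0 was taken as 3 counts where a ratio is given. Differences were tested across all genes with edgeR's quasi-likelihood test on genotype and region, adjusted by Benjamini-Hochberg, with a threshold of 0.05. With no replicates, regions or genotypes stood in for them. DESeq2 (1.42.0), other scalings and filters, and leaving out libraries were alternatives. The members, the marker lists, and the partner list were chosen with earlier results of these data known. Some members and partners are not reported here, though they stay in the counts over members. The others were named, with counts in every library for those with at least 100 counts in a library or a call, and other genes only as *Tigar*, markers, or partners. Ratios of zones relative to cardiomyocyte markers or to the remote zone, and the infarct test without both remote zones, were added after seeing the data. Gene positions came from GENCODE M21 (GRCm38) and upstream sequences from RefSeq. Shared sequence was counted as 31-base words found in transcripts of another gene. Total depth was 27429240 to 33799249 counts.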

Additional observations from a re-analysis of the deposited data

Results flagged for a closer look

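Some members had ratios of one contrast that lay at least 1.5-fold from 1 in opposite directions, each with a counting interval that excluded 1. The size of 1.5-fold was chosen after seeing the data, and the differences between these ratios were not tested, since each rests on single libraries. For *Cacna1a* the TKO over WT ratio was 1.858 in the left ventricle and 1.88 in the border zone but 0.1758 in the remote zone, where TKO had 16 counts and WT 92. The same gene had an infarct zone over left ventricle ratio of 1.501 in WT and 0.6239 in TKO, and a remote zone over left ventricle ratio of 2.021 in WT and 0.1912 in TKO. For *Cacna1h* the remote zone over left ventricle ratio was 1.566 in WT and 0.4734 in TKO. For *Scn3b* the TKO over WT ratio was 1.642 (infarct), 0.4195 (border), and 0.495 (remote).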

How the results depend on the processing

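Most values for named genes stayed (1641), meaning a ratio within its main counting interval or a test on its side of the threshold. Of the others 42 moved, 21 gained and 14 lost a call, and 3 reversed. A value without a call could change direction and still count as stayed. *Cacna1h* in the infarct test (-0.57) reached 0.07 under an alternative. Of the summary values 156 stayed and 19 moved. Scaling by total counts raised the median ratio of all genes in the infarct over left ventricle comparison by 0.829 (log2) in WT and 0.538 in TKO and changed that of TKO over WT in the infarct zone by -0.294, and changes are to be read against that shift. With total counts the median member ratio became 2.457 in WT and 1.678 in TKO, 12 members were 2-fold higher and 3 lower in WT, the infarct test gave 12 higher and 5 lower, and the comparison of border and remote zones with the left ventricle 2. The values that reversed with total counts were *Cacna1g* (1.536) and *Cacna1h* (1.321) in WT and *Cacna1g* in the infarct test (0.42, adjusted p = 0.01538). Relative to cardiomyocyte markers the median ratio was 6.301 in WT and 2.507 in TKO for infarct over left ventricle, 1.428 for remote over left ventricle in WT, and 0.4902 for TKO over WT in the infarct zone. DESeq2 called 3 members by genotype, where it called 128 of all genes higher and 214 lower. In the border and remote comparison it called 3 members, with 416 of all genes higher and 114 lower. Without both left ventricle libraries the genotype test called 1, and a minimum of 10 counts per library let the border and remote comparison call 1. Leaving out 1 library gave 0 to 1 calls by genotype, 4 to 9 higher and 6 to 9 lower in the infarct, and 0 to 2 in the border and remote comparison. The departure test was not rerun with libraries left out. The genotype test already pairs TKO with WT within each region, and the labels give no replicate numbers for a further block. Depth limits members under about 100 counts, and no value here measures the spread between mice.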
